A study of Mus musculus with 4 samples.

Results

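The genes described here are those named for proteins of the mitochondrial ribosome. Choice by symbol takes in Mrps36, described below, and leaves out ribosome components with other symbols. They were chosen from RefSeq's genes of the mouse assembly GRCm38 (mm10) as the protein-coding genes whose symbols start with Mrpl or Mrps followed by a digit. There were 78 of them among 21631 protein-coding genes on chromosomes 1 to 19 and X, 49 with Mrpl symbols, named for the large subunit, and 29 with Mrps symbols, named for the small subunit. Accessible chromatin was measured by ATAC-seq, in which the transposase Tn5 inserts sequencing adaptors into open DNA, in frozen liver of female mice aged 11 weeks, all on the FVB background and on standard chow. Wild-type mice gave 2 libraries (WT 1 and WT 2), and 2 came from mice labelled PA (PA 1 and PA 2), which the labels describe as hypomorphic Pcca-/- with the form A138T. Pcca encodes the alpha subunit of propionyl-CoA carboxylase, and the sources used here do not say what drives A138T. For each library a list of peak positions was used, with 26280, 25941, 25683 and 29765 lines in WT 1, WT 2, PA 1 and PA 2. Such a list says whether a place passed the peak caller, not how open it was, and read depth is unknown.

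The mitochondrial ribosome sits in the mitochondrial matrix and translates the few messenger RNAs encoded by mitochondrial DNA, all of which encode subunits of the respiratory chain and of ATP synthase. Its RNAs come from mitochondrial DNA, while all of its proteins come from nuclear genes scattered over the chromosomes, are made in the cytosol and are imported. Genes of this kind are transcribed in most cell types, and many promoters of nuclear genes for mitochondrial proteins are known to be bound by NRF1 and by ETS factors such as GABP. As a check of the labelled tissue, the hepatocyte genes Ttr and Cps1 had a peak within 1 kb of a gene end in all 4 libraries, Hnf4a and Fgb in 3, Alb in 1, and Apoa1 and Serpina1e in 0. Of markers of other liver cells, Kdr (endothelium) and Reln (stellate cells) had one in all 4, Sox9 (bile duct) in 3, and Lrat (stellate cells) in 1. Of the Kupffer cell genes, Adgre1 had one in both PA libraries and no WT library, Cd5l in WT 1 and PA 2, and Clec4f in 0, and the part of such cells in the results was not tested. Pecam1, Stab2, Des, Krt19, Epcam and the lymphocyte genes Cd3e and Ptprc had one in 0.

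Promoter sequences of 6 stretches are shown first, because the calls described below lie over them and because they differ in the letters they hold. Each runs 5′ to 3′ along the strand of the named gene, from 250 bases before its start to 50 bases from the start on, and was copied from RefSeq (GRCm38.p6). In the first, which is the window of Mrpl46 (chr7:78783040-78783339, reverse strand), capitals mark the 43 bases from the start of Mrpl46 to the start of Mrps11, which is transcribed the other way. In the others, capitals mark matches to the NRF1 motif (10 bases, as capitalised in Mrpl32, where either middle base, but not both, may be replaced), the ETS motif (CCGGAAG) or the YY1 motif (AAGATGGCG), on either strand. Mrpl17 (chr7:105811038-105811337, reverse strand), Mrpl32 (chr13:14612988-14613287, reverse strand) and Mrps9 (chr1:42850983-42851282, forward strand) stood near the top of every list. Mrpl57 (chr14:57825989-57826288, forward strand) and Mrpl35 (chr6:71823735-71824034, reverse strand) stood in the lower part of every list.
Mrpl46 and Mrps11: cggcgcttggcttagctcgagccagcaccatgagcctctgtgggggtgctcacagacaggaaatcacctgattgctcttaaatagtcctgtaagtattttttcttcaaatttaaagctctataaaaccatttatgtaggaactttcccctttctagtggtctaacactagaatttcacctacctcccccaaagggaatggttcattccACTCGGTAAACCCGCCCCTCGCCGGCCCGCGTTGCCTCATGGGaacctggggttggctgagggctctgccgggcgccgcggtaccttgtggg
Mrpl17: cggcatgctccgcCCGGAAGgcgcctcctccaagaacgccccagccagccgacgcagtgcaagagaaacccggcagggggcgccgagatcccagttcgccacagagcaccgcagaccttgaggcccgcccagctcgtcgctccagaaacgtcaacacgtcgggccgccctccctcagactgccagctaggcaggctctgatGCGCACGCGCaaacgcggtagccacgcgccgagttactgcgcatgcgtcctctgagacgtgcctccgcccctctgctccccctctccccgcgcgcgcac
Mrpl32: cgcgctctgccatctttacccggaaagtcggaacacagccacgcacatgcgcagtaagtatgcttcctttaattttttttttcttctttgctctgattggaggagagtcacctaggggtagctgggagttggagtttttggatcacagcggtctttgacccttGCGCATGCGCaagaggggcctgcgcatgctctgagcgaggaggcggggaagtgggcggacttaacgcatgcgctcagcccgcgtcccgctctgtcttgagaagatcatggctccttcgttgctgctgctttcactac
Mrps9: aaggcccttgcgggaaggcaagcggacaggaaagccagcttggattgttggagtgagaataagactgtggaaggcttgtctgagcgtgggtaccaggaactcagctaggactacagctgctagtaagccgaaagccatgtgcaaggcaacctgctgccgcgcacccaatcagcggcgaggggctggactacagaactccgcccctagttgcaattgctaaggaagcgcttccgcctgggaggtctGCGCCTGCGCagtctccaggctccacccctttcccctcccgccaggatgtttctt
Mrpl57: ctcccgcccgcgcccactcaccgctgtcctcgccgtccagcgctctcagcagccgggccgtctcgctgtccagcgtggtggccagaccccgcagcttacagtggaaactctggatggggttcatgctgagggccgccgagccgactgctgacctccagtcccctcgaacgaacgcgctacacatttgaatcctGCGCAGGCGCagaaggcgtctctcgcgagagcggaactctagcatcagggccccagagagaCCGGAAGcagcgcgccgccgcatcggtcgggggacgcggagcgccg
Mrpl35: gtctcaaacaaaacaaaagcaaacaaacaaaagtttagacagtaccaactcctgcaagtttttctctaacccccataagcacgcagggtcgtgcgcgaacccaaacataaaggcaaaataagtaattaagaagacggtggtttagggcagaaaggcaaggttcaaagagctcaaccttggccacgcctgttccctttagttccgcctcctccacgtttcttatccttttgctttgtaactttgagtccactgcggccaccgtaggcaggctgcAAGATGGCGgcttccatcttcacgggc

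Most mitochondrial ribosomal protein genes had an accessible region at an end in both genotypes. A gene counted as called in a library when any base of a peak lay within 1 kb of the start or the end of the gene as the gene table gives them. By this measure 58 of the 78 genes were called in all 4 libraries, 10 in 1 to 3 libraries and 10 in none. The background over all protein-coding genes was 41.3% for all 4 libraries, 10.4% for 1 to 3 and 48.3% for none. The share called in all 4 was thus 74.4% for the ribosomal protein genes, with 36 of 49 for Mrpl and 22 of 29 for Mrps symbols. No test of this difference was run, since genes are not replicates of a condition.

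Per library, the called genes numbered 64 (WT 1), 64 (WT 2), 62 (PA 1) and 65 (PA 2). The same shares over all protein-coding genes were 46.2%, 46.4%, 46.3% and 47.0%. The mean was 64 ± 0 genes (SD, n = 2) for WT against 63.5 ± 2.12 (SD, n = 2) for PA, and the difference of -0.5 genes was less than the SD of PA (exact permutation test over the libraries, two-sided, p = 1). With 2 libraries against 2, the smallest p that this test can give is 0.333. The 4 values lie within 3 genes of each other, and the genotypes overlap.

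Most of the other listed genes of mitochondrial translation were called in every library too, 48 of 69 (69.6%). These include 5 ribosome components with other symbols, given below. Of 25 genes listed for its assembly and for the handling of mitochondrial RNA, 19 were called in all 4 libraries (76%). Of 22 genes for the enzymes that charge mitochondrial transfer RNAs it was 16 (72.7%), and of 5 genes for transcription of mitochondrial DNA 3 (60%). Of 12 genes listed with the mitochondrial translation factors, Oxa1l among them, it was 8 (66.7%). Mtif3, a mitochondrial initiation factor gene, was called in PA 1 and PA 2 but in no WT library, a pattern held by 0.661% of all protein-coding genes. Among 5 ribosome components with other symbols, 2 were called in all 4 (40%), while Chchd1 and Gadd45gip1 were called in 0. The proteins of the cytosolic ribosome, a separate set of genes, gave 60 of 76 (78.9%). The plot of shares by gene set shows the larger of these lists, all above the share over all protein-coding genes.

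**Figure D1:**
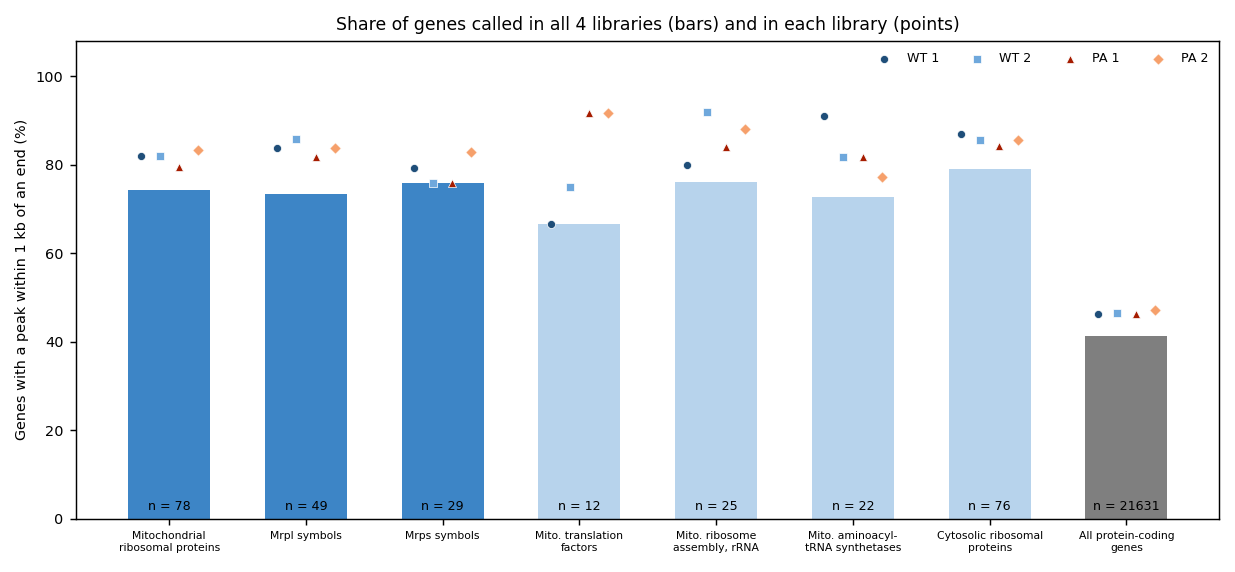
Share of genes with a peak within 1 kb of an end, in percent (vertical axis), for gene sets named below the bars with their number of genes. Bars give the share called in all 4 libraries and points the share in each library; the bar of the mitochondrial ribosomal protein genes reaches 74.4% and that of all protein-coding genes 41.3%.

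The place of a gene in a list is used next as a description. It is the line number of the gene's highest-standing peak near an end, as a percent of all lines of that library's list, so that a low value is near the top. The sources used here do not state what orders the lines, so a place is not a measure of accessibility. Across the 58 genes called in all 4 libraries, places were alike between libraries, with Spearman's rho lowest between WT 1 and PA 1 (0.932) and highest for WT 1 with PA 2 (0.961). This is a correlation across genes, which are not independent replicates and whose peaks share the caller and its threshold. The median place was 36.0% and 27.3% for WT 1 and WT 2, and 24.8% and 28.5% for PA 1 and PA 2. Over the 8924 protein-coding genes called in all 4 libraries the medians were nearer the top, 24.7%, 22.3%, 20.2% and 21.6%. In both sets WT 1 had the largest median.

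The gene standing highest was Mrpl17, which encodes a large subunit protein kept from bacteria. Its peak stood at 0.434% and 0.740% of the lines for WT 1 and WT 2, and at 0.440% and 0.662% for PA 1 and PA 2. The merged region, chr7:105810937-105811366, covers the start of Mrpl17, and the genotypes overlapped in place. Mrps28, of the small subunit, stood at 1.54%, 1.77%, 1.09% and 1.23% in the same order of libraries. Mrpl32, a large subunit protein that is cut to its mature form inside the mitochondrion, stood at 1.38%, 2.68%, 2.39% and 1.85%. Both stood in the upper 3% of every list, and for Mrps28 both PA values were lower than both WT values.

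Mrpl47, of the large subunit, followed at 3.47%, 3.79%, 2.37% and 2.39%. Mrps14, of the small subunit, stood at 4.02%, 4.27%, 1.69% and 2.02%, and Mrps9, of the small subunit too, at 3.62%, 4.57%, 3.33% and 4.09%. For Mrps14 and Mrpl47 both PA libraries stood above both WT libraries, while for Mrps9 the genotypes overlapped. In all, 11 of the 58 genes stood in the upper 10% of every list, against 19.6% of protein-coding genes called in all 4. The upper 50% of every list held 41 of the 58 (70.7%), against 75.0%.

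Ranked by the lowest standing in any 1 list, the 6 lowest genes were all of the large subunit. By the mean over the 4 lists Mrps22, of the small subunit, was among the lowest too, at 74.3%, 78.4%, 66.3% and 54.2%, and it is named after its values were seen. Mrpl35 stood at 93.5%, 68.2%, 76.1% and 81.2% in the same order of libraries. Mrpl11, whose protein lies at the base of the stalk where translation factors bind, stood at 91.9%, 79.9%, 82.6% and 83.5%. Mrpl3 stood at 58.4%, 86.4%, 50.9% and 53.0%, with WT 2 lowest in its list. The other three had their lowest place in WT 1. Mrpl16 stood at 84.9%, 63.5%, 63.2% and 79.9%. Mrpl42 stood at 84.5%, 46.0%, 57.0% and 70.4%. Mrpl57 stood at 82.5%, 63.4%, 52.5% and 62.2%.

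**Figure D2:**
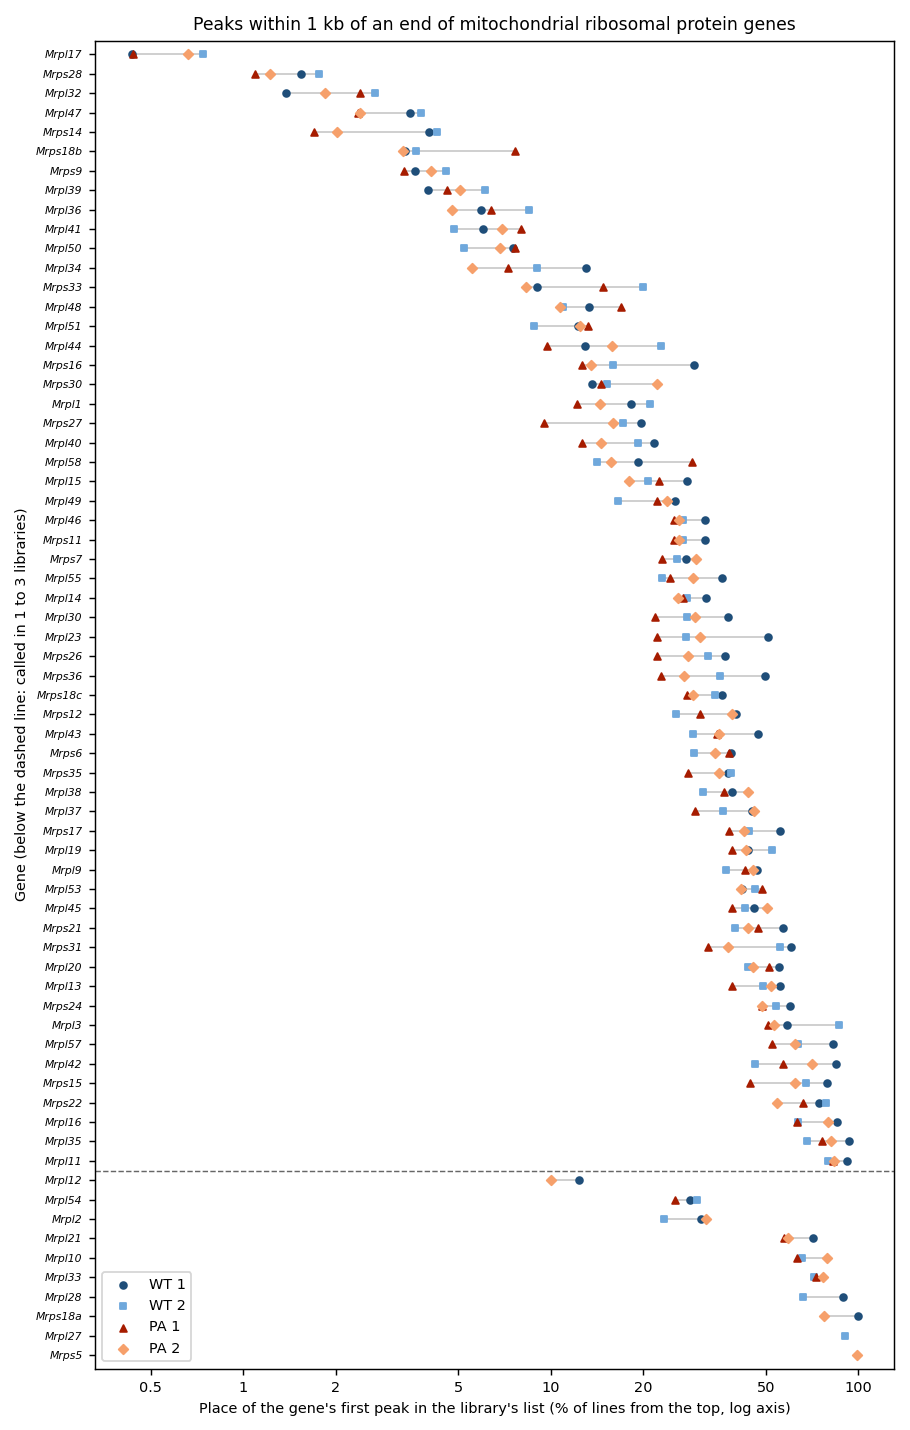
Place of each gene's first peak near an end (horizontal log axis, percent of lines from the top of the library's list) for the 68 genes with a call (rows); symbols and colours mark the libraries and grey lines join a gene's values. Genes are ordered by their median place within those called in all 4 libraries, from Mrpl17 under 1% to Mrpl11 above 79%, and then those called in 1 to 3 libraries below the dashed line.

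Genes called in 1 to 3 libraries mostly had peaks in the lower part of the lists. Their 23 places ran from 10.03% to 99.8% with a median of 65.7%, and 15 of them lay in the lower 50%. For the genes called in all 4 libraries, 43 of 232 places lay there (18.5%). Within the family, fewer calls thus went with places nearer to the end of the lists. The places of other protein-coding genes called in 1 to 3 libraries are not given here.

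Of these 10 genes, 5 were called in exactly 3 libraries, a pattern seen in 3.85% of all protein-coding genes. Mrpl10, of the stalk of the large subunit, was not called in WT 1 and stood at 65.7%, 63.0% and 79.1% in WT 2, PA 1 and PA 2. Mrpl33, of the large subunit, was also missing from WT 1 and stood at 71.5%, 72.7% and 76.7%. Mrpl21, also of the large subunit, was missing from WT 2 and stood at 71.3% in WT 1, 57.2% in PA 1 and 59.0% in PA 2. These 3 genes had peaks over their starts wherever they were called. The region at Mrpl10 also overlaps an end of Lrrc46, and that at Mrpl21 an end of Ighmbp2.

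Mrpl2, whose protein lies close to the site of peptide bond formation, was missing from PA 1, where the nearest peak was 24014 bp from its ends. Its peak over the start stood at 30.8% (WT 1), 23.3% (WT 2) and 32.0% (PA 2), so the missing call was not at the bottom of the lists. That region also overlaps an end of Klc4, a kinesin light chain gene. Mrpl54, of the large subunit, was missing from PA 2. Its peaks in WT 1, WT 2 and PA 1 lay 100, 70 and 67 bp from an end, in the region chr10:81266427-81266859, at 28.3%, 29.9% and 25.4%. PA 2 had no peak in that region, and its nearest was a separate one 1077 bp from the end, at 29.7%.

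Calls in 2 libraries were found for 3 genes. Mrpl28, of the large subunit, was called in WT 1 and WT 2 but in no PA library, a pattern held by 0.476% of all protein-coding genes. Its peak covered the start and stood at 89.3% in WT 1 and 65.8% in WT 2, and the nearest PA peaks were 11850 bp (PA 1) and 11828 bp (PA 2) away. Mrps18a, one of the 3 mammalian relatives of a bacterial small subunit protein, was called in WT 1 (99.8%) and PA 2 (77.1%). Mrpl12, the stalk protein that binds translation factors, was called in WT 1 (12.3%) and PA 2 (10.03%) from a peak 629 and 681 bp beyond its other end, while its start had none within the window in any library. Single calls were made for Mrpl27 in WT 2 (90.2%) and for Mrps5, of the small subunit, in PA 2 (99.1%). The region at Mrpl27 also overlaps an end of Eme1. None of the 78 genes was called in PA 1 and PA 2 alone.

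The 10 genes with no call were Mrpl4, Mrpl18, Mrpl22, Mrpl24, Mrpl52, Mrps2, Mrps10, Mrps23, Mrps25 and Mrps34. A gene's ends in the gene table are the outermost ends of all its transcripts, so a start inside that span is missed. The promoter table gave a start for 69 of the 78 genes, and 5 of the genes with no call had a peak at that start in all 4 libraries (Mrpl18, Mrpl22, Mrpl24, Mrps2 and Mrps23). The start of Mrpl18 lay 1696 bp inside the end, and its peak stood at 5.40%, 3.16%, 2.80% and 1.62% in WT 1, WT 2, PA 1 and PA 2, among the higher places of the family. The start of Mrps23 lay 10282 bp inside, and its peak stood at 64.0%, 53.1%, 36.9% and 43.6%. Mrpl24 stood at 62.1%, 58.6%, 52.7% and 53.5%, and Mrpl22 at 64.0%, 75.3%, 49.5% and 56.3%, so these 3 lay near or below the middle in most lists. Mrps2, whose start lay 2115 bp inside, stood at 87.3%, 81.2%, 70.3% and 68.2%. Counted at these starts alone, 56 of 69 genes were called in all 4 libraries (81.2%), against 44.2% of 17274 protein-coding genes with a start in the table.

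Of the other genes with no call, Mrps25 had its nearest peak 30709 to 30726 bp from an end in every library, and Mrps34 8366 to 8371 bp. For Mrpl52 the distance was 8810 bp in WT 2 and 16430 to 19210 bp in the others, and for Mrpl4 it was 1308 to 1732 bp. Mrps10, of the small subunit, had its nearest peak 1867 bp away in PA 1 and 1811 bp in PA 2, and 13888 and 13843 bp away in WT 1 and WT 2. The PA peaks lay past its far end, 14088 and 14032 bp from its start, and stood at 90.0% and 80.4% of their lists. At the border of the 1 kb window, the called distances furthest out were those of Mrps31 (701 to 747 bp in the 4 libraries) and the uncalled distances nearest in were those of Mrpl54 in PA 2 (1077 bp) and of Mrpl24 (1164 to 1235 bp).

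Peaks lay over the starts of the genes rather than at their other ends. Of the 69 genes with a start in the promoter table, 61, 61, 60 and 61 had a peak within 1 kb of it in WT 1, WT 2, PA 1 and PA 2. Those are 87.0% to 88.4% of the family, against 48.9% to 49.6% of protein-coding genes with a start in the table. At the opposite end the counts were 8, 7, 6 and 8, from 8.70% to 11.6%, against 3.81% to 4.13% of protein-coding genes. A peak near the start is counted here again where it also lies within 1 kb of the opposite end. Such were the peaks at Mrpl34 and Mrpl53, which are shorter than 1 kb. So was the region over the start of Mrpl36, 718 bp from its far end. Calls at the opposite end that are separate from the start were not counted. Where a peak lay near the start, it covered the start itself for 54, 55, 53 and 53 genes. The share, 86.9% to 90.2%, was near that of protein-coding genes at large (83.0% to 83.7%). The centre of the peak lay upstream of the start for most genes, with median offsets of -46 bp, -43 bp, -43.5 bp and -35 bp. All protein-coding genes gave -51 bp, -47 bp, -50 bp and -51 bp, which is close to the family's values.

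**Figure D3:**
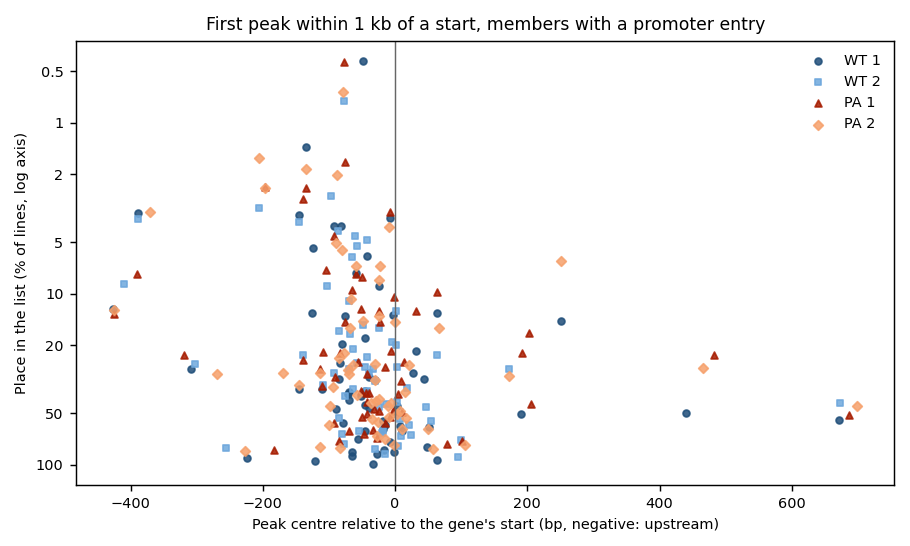
Centre of the first peak within 1 kb of a gene's start (horizontal axis, bp along the direction of transcription, negative is upstream) against its place in the list (vertical log axis, percent of lines, top of the list uppermost), 1 point per gene and library. Most points lie just upstream of the start, with medians from -46 to -35 bp by library.

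At Mrpl58, which encodes an enzyme of the large subunit that frees stalled ribosomes, the end and the start gave different answers. The call in all 4 libraries came from a region 365 bp past its far end (chr11:115413039-115413552), at 19.2%, 14.1%, 28.8% and 15.7%. The region over its start (chr11:115403432-115403867) was called only in WT 1 (95.4%) and PA 1 (73.1%). Mrpl36, of the large subunit, had 2 regions in every library, neither of them over its far end. One lay over the upstream end of its span (chr13:73328343-73328744) at 5.94%, 8.51%, 6.41% and 4.77%. The other lay over the start given in the promoter table (chr13:73330808-73331460) at 14.5%, 12.7%, 10.5% and 6.40%. Mrpl48 and Mrps18b also had 2 called peaks in every library, 8 over the 4 libraries, as did Mrpl36.

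Many of the genes have an end close to an end of another gene, and for some of them 1 accessible region lies at both. Another protein-coding gene had an end within 1 kb of an end of 44 of the 78 genes (56.4%), against 25.1% of all protein-coding genes, 36.7% of those called in all 4 libraries and 36.8% of the cytosolic ribosomal protein genes. A region called in all 4 libraries lay within 1 kb of both ends for 26 of the 78 genes (33.3%), against 11.5% of all protein-coding genes and 18.4% of the cytosolic ribosomal protein genes. Among genes called in all 4 libraries it was 44.8% of the family and 27.7% of all protein-coding genes. The region covered both ends for 19 of the 26. The distance between the ends ran from 13 to 892 bp with a median of 99 bp. Strand was known for both genes in 23 cases, and in 16 of them the genes ran away from each other from facing ends. Mrpl46 and Mrps11, partners of each other, are both among the 16. So is Mrpl36, whose start in the promoter table lies 2506 bp inside that end. The same share over all protein-coding genes is not given. A peak at such a place cannot be given to 1 of the 2 genes.

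In 1 case both partners were mitochondrial ribosomal protein genes. Mrpl46, of the large subunit, and Mrps11, of the small subunit, start 42 bp apart on opposite strands, as shown above. A single region, chr7:78782847-78783286, covered both starts and stood at 31.7% and 26.9% of the lines for WT 1 and WT 2, and at 25.2% and 26.2% for PA 1 and PA 2. Their calls are therefore 1 observation and not 2. The libraries were close to each other there, with both PA places just above both WT places in the list.

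The shortest distance was that of Mrpl53 and Ccdc142 (13 bp), followed by Mrps6 and Slc5a3 (14 bp), a sodium-coupled inositol transporter gene that runs in the same direction. Mrpl36 lay 21 bp from Ndufs6, which encodes a subunit of complex I of the respiratory chain, Mrpl30 lay 28 bp from Mitd1, and Mrpl37 lay 36 bp from Cyb5rl. The partners of the other genes were of many kinds, and no theme among them was tested. The examples that follow were picked after their values were seen. Mrpl50 lay 93 bp from Zfp189, a zinc finger protein gene, Mrps18c lay 98 bp from Helq, a DNA helicase gene, and Mrpl40 lay 113 bp from Hira, a histone chaperone gene. Mrpl47 started 302 bp from Ndufb5, another complex I subunit gene. Mrps12, whose protein helps to form the decoding centre, started 136 bp from Sars2, the mitochondrial seryl-tRNA synthetase gene. Mrpl49 started 192 bp from Fau, which encodes a cytosolic ribosomal protein fused to a ubiquitin-like one, and Mrpl32 started 205 bp from Psma2, a proteasome subunit gene.

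Calls were more frequent beside a close neighbour over all genes, and not within the family. Of all protein-coding genes, 60.4% of those with such a neighbour were called in all 4 libraries, against 34.9% of those without. In the family it was 31 of 44 (70.5%) with a neighbour and 27 of 34 (79.4%) without. No test was run on these shares.

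The promoter windows held NRF1, ETS and YY1 motifs more often than promoters in general. The table gave 75 windows for the 69 genes. The ETS motif CCGGAAG was found in 26 of them (34.7%), against 8.86% of all 32851 windows of the table, 11.7% of those of protein-coding genes and 19.3% of those of protein-coding genes called in all 4 libraries. The NRF1 motif was found in 13 (17.3%), against 4.60%, 6.44% and 11.5% in the same order. The YY1 motif AAGATGGCG was found in 8 (10.7%), against 1.40%, 1.84% and 3.22%. At least 1 of the ETS and NRF1 motifs was found in 35 windows (46.7%), against 28.3% for protein-coding genes called in all 4. In the 56 windows of family genes called in all 4, ETS was in 32.1%, NRF1 in 21.4% and YY1 in 12.5%. At least 1 of ETS and NRF1 was in 46.4% of those windows. All motifs were searched as exact matches on both strands, so a match is only these letters and not a bound site.

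For the SP, NFY and TATA motifs the order depended on the windows compared. GGGCGG, the SP motif, was in 52% of the family's windows, against 46.7% for all protein-coding genes. Among genes called in all 4 libraries it was in 60.7% for the family against 65.5%. In the same order, the NFY motif CCAAT was in 40% against 38.5%, and 37.5% against 40.7%. The TATA motif TATAAA was in 6.67% against 12.7%, and 8.93% against 6.95%. The CRE motif TGACGTCA was in 2.67% against 2.26%, and 3.57% against 3.47%. Median G and C was 57.8% in the family's called genes, against 61.3% in called protein-coding genes. Their median number of CpG pairs was 20 against 22. The cytosolic ribosomal protein genes, with 66 windows, had the ETS motif at a similar share (36.4%), and NRF1 in 7.58% and YY1 in 7.58%.

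**Figure D4:**
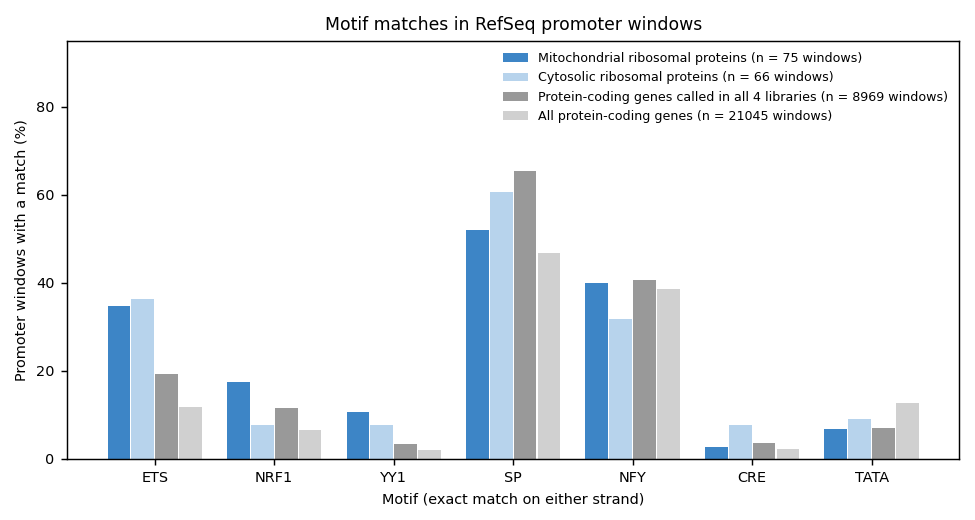
Share of promoter windows with at least 1 exact match on either strand (vertical axis, percent) for 7 motifs (horizontal axis), with a bar for each of 4 sets of windows whose numbers stand in the key. The ETS bar of the mitochondrial ribosomal protein genes reaches 34.7%, against 19.3% for protein-coding genes called in all 4 libraries.

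Match positions are counted within windows running only from 250 bases before a start to 50 bases from the start on. No match could thus lie far from a start, and the same shares for other protein-coding genes are not given. Of 31 ETS matches in the windows, 28 began within 100 bases of a start, as did 14 of 16 NRF1 matches and 7 of 8 YY1 matches. The median first base was -17 for ETS and -43.5 for NRF1, counted from the start as 0. YY1 matches differed, with 6 of the 8 reading AAGATGGCG along the gene from 11 to 36 bases past the start, as in Mrpl35, Mrpl37, Mrpl42, Mrps18a, Mrps24 and Mrps27. In the windows printed above, the NRF1 match of Mrps9 began at -5, that of Mrpl17 at -49 and that of Mrpl32 at -87. Mrpl57 held both an NRF1 match (-57) and an ETS match (4), while its peaks stood low in the lists. Among genes of the family called in all 4 libraries, the median of the mean place was 28.6% for the 12 with an NRF1 match and 27.8% for the 40 without. It was 24.7% with and 28.1% without an ETS match, and 39.1% with (7 genes) and 28.1% without a YY1 match. Over protein-coding genes called in all 4 libraries, the medians were 19.4% with and 23.0% without NRF1, 24.1% and 22.01% for ETS, and 25.2% and 22.4% for YY1. These are descriptions with no test.

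Regions called in both libraries of 1 genotype and none of the other numbered 2 of 73 at these genes, and most of their regions were found in all 4 libraries. Merged over the libraries, 73 regions lay near family members (at most 1 kb from an end), and 59 of them (80.8%) were called in all 4 libraries, against 45.3% (17581) of all 38853 regions. The regions at large include those away from gene ends, so these are not shares of like regions. Counted by gene, 58 of the family were called in all 4 libraries and 10 in 1 to 3. For protein-coding genes these numbers were 8924 and 2252. None of the 73 was called in both PA libraries alone. The 2 called in both WT libraries alone were that over the start of Mrpl28 (chr17:26123223-26123638) and one past the far end of Mrpl2 (chr17:46650279-46650678), at 40.1% in WT 1 and 30.6% in WT 2, which overlaps an end of Cul7. Of all regions, 1.98% were called in both WT libraries alone and 3.38% in both PA libraries alone. When each region was given to the nearest gene end within 50 kb, PA-only regions fell to Mrpl19 (12949 bp away, at 85.7% and 80.1% of the PA 1 and PA 2 lists) and to Mrpl36 (35638 bp away, at 98.5% and 68.6%).

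At Mrps36, whose protein is known as a part of the 2-oxoglutarate dehydrogenase complex, the calls of the 4 libraries fell into 2 neighbouring regions. The peak of WT 2 lay over the start (35.5%), and those of WT 1, PA 1 and PA 2 lay 240, 282 and 266 bp from it (49.9%, 22.8% and 27.1%). The gene thus counts as called in all 4 libraries without a region common to them.

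Place in the list did not separate the genotypes beyond the spread between libraries. The median place of the 58 genes was 31.6% ± 6.18 (SD, n = 2) over the WT lists against 26.7% ± 2.61 (SD, n = 2) over the PA lists, a difference of -4.97 percentage points (exact permutation test over the libraries, two-sided, p = 0.667). Leaving out WT 1 brought this difference to -0.549, and leaving out WT 2 to -9.04. Both PA places were above both WT places for 23 of the 58 genes, against 29.3% of the 8924 protein-coding genes called in all 4. Both WT places were above both PA places for 2 genes, against 6.97%. Places in lists of different length do not by themselves show a change, WT 1 had the largest median for genes at large too, and the part of either in these counts was not tested. Counted only over the 17581 regions that all 4 lists hold, the numbers were 11 and 5 of 57 genes, against 16.8% and 10.9%.

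The genes that stood further up in the PA lists by the largest ratio were Mrps14, whose values are given above, Mrps16 and Mrpl34. Mrps16, of the small subunit, stood at 29.2% and 15.9% for WT 1 and WT 2, and at 12.7% and 13.5% for PA 1 and PA 2. Mrpl34, of the large subunit, stood at 13.0%, 8.99%, 7.27% and 5.56%. In these 3 genes the PA places did not overlap the WT places. For Mrps16 and Mrpl34, however, the WT libraries lay further apart than WT 2 from either PA library.

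In the other direction the ratio was largest for Mrps18b, Mrpl41 and Mrpl58. Mrps18b, a second relative of the bacterial protein named for Mrps18a, stood at 3.36%, 3.65%, 7.62% and 3.31%, so PA 1 alone was lower. Its region, chr17:35916612-35917030, lies nearer to Ppp1r10 than to Mrps18b. Mrpl41, of the large subunit, stood at 6.02%, 4.86%, 7.98% and 6.92%, with both WT libraries above both PA libraries.

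**Figure D5:**
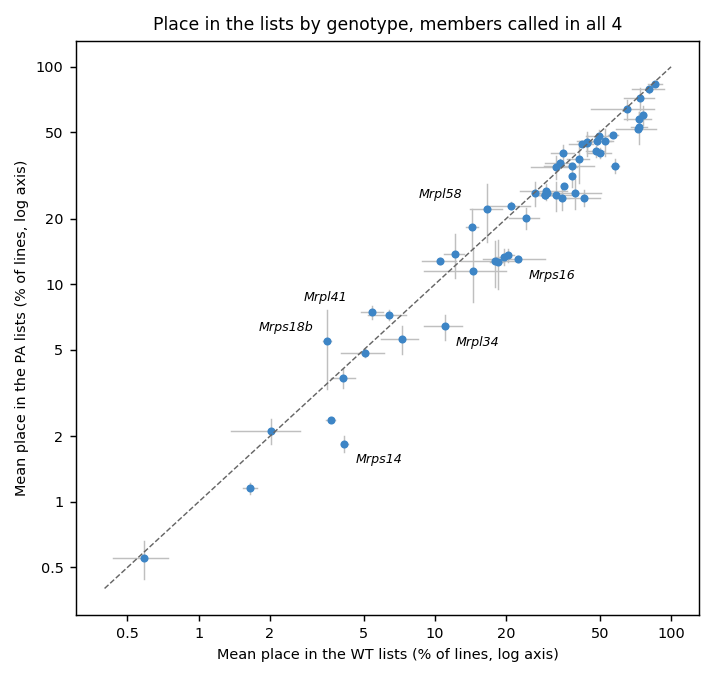
Mean place over the 2 WT lists (horizontal) against the mean over the 2 PA lists (vertical), both on log axes in percent of lines, for the 58 genes called in all 4 libraries; grey bars span the 2 libraries of each genotype and the dashed line marks equal places. Points follow the line, with Mrps14, Mrps16 and Mrpl34 furthest below it and Mrps18b, Mrpl41 and Mrpl58 furthest above.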

How the data were processed

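ATAC-seq peak lists of 4 libraries, 2 WT and 2 PA, were used. The values in the deposited lists are peak positions only, as chromosome, start and end, with no score or other measure per peak. The build was GRCm38 (mm10), and HOMER 4.10, bedtools 2.31.0, SAMtools 1.17, Bowtie2 2.5.1, cutadapt 3.5 and R 4.1.2 are named, with no role or order, per the submitters' processing notes. The sources used here do not state how peaks were called, at which threshold, or whether reads were filtered or shifted for the Tn5 cut. Depth per library is therefore unknown, and a deeper library can pass the threshold at more places. Nearly all peaks were 400 bp long.

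Positions were read with Python 3.11.15, and calls, places, regions (peaks of any library merged where they overlap) and motif matches were computed as described in the text. The calling step was tested on simulated peaks at known distances. Groups and replicate numbers came from the titles. The series design calls the replicates biological. Genes came from the RefSeq gene table, which has no strand, and starts, strands and sequences from the RefSeq promoter table, both GRCm38.p6. Other genes of mitochondrial translation were given as 71 symbols, which matched 69 genes, since 1 is an older symbol of a gene already listed and 1 was unmatched.

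Members, lists, motifs and tests were chosen with earlier results of these data known. Named genes were those not called in all 4 libraries, the 6 highest and 6 lowest places, and those with the most peaks. Of the 6 with the most peaks, Mrpl1 tied with many genes at 4 peaks and is not described. Also named were the 3 largest ratios of place in each direction, the 6 closest partners, and those with a region restricted to 1 genotype. The differences between genotypes were compared by exact permutation tests over the libraries. Alternatives varied the window, the end used, the part of the list used and the libraries.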

Additional observations from a re-analysis of the deposited data

How the results depend on the processing

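The number of genes called in all 4 libraries, 58, stayed within 1.5 times under every alternative tried, from 41 in the upper 50% of the lists to 64 with a window of 2 kb. It was 54 with 500 bp, 56 of 69 at starts alone, 58 with lists cut to 25683 lines, 59 to 60 when a library was left out, and 63 with ends or starts, an alternative chosen after seeing the data. The mean number called in WT and in PA was 60.5 and 59.5 with 500 bp, 69 and 70 with 2 kb, 61 and 60.5 at starts alone, 48 and 50.5 in the upper 50%, and 69 and 68.5 with ends or starts. With equal lists the WT mean was 63.5. The difference PA minus WT, -0.5 genes, changed sign with 2 kb (1) and in the upper 50% (2.5), and ran from -2 without PA 2 to 1 without PA 1. Exact permutation p ran from 0.333 to 1 over the alternatives. The cause was not tested. With 2 kb, 1 gene was called in both PA libraries alone (Mrps10, from peaks past its far end). In the upper 50% there were 2 (Mrps24 and Mrps31, whose WT peaks lie past the limit). With a library left out there were 0 to 2, where the condition is looser by construction. Genes called in both WT libraries alone numbered 0 in the upper 50% and 1 to 2 with a library left out. Median places over the regions in all 4 lists, also chosen after seeing the data and counted in fewer lines, were 43.3% in WT and 40.4% in PA. The difference in median place, -4.97 percentage points, was -0.549 without WT 1 and -9.04 without WT 2. No paired analysis was possible because the replicate numbers come from titles that name no shared animal or day and the calls come from no fitted model.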
